A study of Mus musculus with 30 samples.

Results

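The fragments described here are those of mt-Rnr1, the gene of the mitochondrial 12S rRNA, which is the rRNA of the small subunit of the mitochondrial ribosome. A distinct sequence of a library was taken as a 12S fragment when its whole length matched the mt-Rnr1 transcript of GENCODE M21 in the sense direction without a mismatch. In all 30 libraries together, 14342 distinct sequences with 2790740 reads met this rule, of 1487695334 reads. The gene (ENSMUSG00000064337.1, transcript ENSMUST00000082388.1) is 955 nt long and lies at chrM:70-1024 of GRCm38 on the plus strand, between the tRNA genes mt-Tf (chrM:1-68) and mt-Tv (chrM:1025-1093). It has no intron, and bases of the 12S rRNA are counted from 1 at its 5′ end throughout.

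The libraries were made from the prefrontal cortex of mice that were 6 months old, either hemizygous 5xFAD mice (AD), a transgenic model of Alzheimer's disease whose transgenes are driven by a neuronal promoter, or wild-type littermates (WT) on the C57BL/6J background, of both sexes. RNA of 15 to 50 nt was cut from a gel. For PANDORA-seq (8 WT and 8 AD libraries) this RNA was treated with AlkB, which removes methyl groups from several modified bases, and with T4 PNK, which gives RNA ends the phosphate and hydroxyl groups that adapter ligation needs. For traditional-seq (7 WT and 7 AD libraries) it was ligated without treatment. AD libraries were compared with WT libraries of the same protocol, and the protocols with each other. The labels do not say which libraries share an animal. Codes in the names of the deposited files are shared by 14 libraries of each protocol and may mark the same animal, so that tests between protocols, which treat all libraries as independent, may join libraries that are not. P-values measure the spread between these libraries.

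Mitochondrial rRNAs are transcribed with the flanking tRNAs in one long precursor, and the tRNAs are cut out of it, which frees the rRNA ends. The 12S rRNA folds into helices and loops that carry a few modified bases, among them a pair of neighbouring dimethylated adenines in the loop of the helix next to its 3′ end. Fragments of mitochondrial rRNAs, one class of rRNA-derived small RNAs (rsRNAs), are read in small RNA libraries of many tissues, brain included.

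PANDORA-seq libraries held between 54926347 and 105876141 reads, and traditional-seq libraries between 9370669 and 17053412 reads. Levels below are given as RPM, the reads of a fragment after a library is scaled to 1000000 reads, and 3 reads, taken as the lowest reliable count, correspond to between 0.0283 and 0.0546 RPM in PANDORA-seq and to between 0.176 and 0.320 RPM in traditional-seq. These limits cover counting error only. The reads of PANDORA-seq ran from 15 to 45 nt and those of traditional-seq from 15 to 42 nt, so that fragments of 43 to 45 nt came from PANDORA-seq alone. These are kept apart from those of 15 to 40 nt. The class was set apart because earlier results of these data had shown that all reads of this length differ between the genotypes. Of the tissue markers, the brain miRNAs miR-9-5p and miR-128-3p were read in every library (lowest levels 21.3 and 453 RPM), the heart miRNA miR-208a-3p had 0 reads in every library, and the red cell miRNA miR-451a had between 0.0585 and 8.12 RPM.

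The stretches of the 12S rRNA that the results turn on are shown as the DNA letters of the GENCODE M21 transcript, 5′ to 3′, so that T stands for U. The first holds the main peak of PANDORA-seq and of traditional-seq (bases 497 to 588, chrM:566-657) and the second the main peak of the fragments of 43 to 45 nt (bases 258 to 311, chrM:327-380). In both, every TA, which is UA in the RNA, is in capitals, because this pair of bases recurs at the fragment ends. The third is the 3′ end of the rRNA (bases 906 to 955, chrM:975-1024), where the capitals mark the loop with the adenines that are dimethylated in the mature rRNA.
12S 497-588: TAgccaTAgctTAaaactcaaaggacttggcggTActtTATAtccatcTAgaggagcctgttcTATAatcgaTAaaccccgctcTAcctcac
12S 258-311: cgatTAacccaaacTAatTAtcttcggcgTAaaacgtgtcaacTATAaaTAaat
12S 906-955: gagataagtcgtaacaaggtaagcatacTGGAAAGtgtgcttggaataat

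The most abundant single fragments show where the ends lay. Each of the following is printed with the base before it and the 2 bases after it, and capitals mark a TA pair that its 5′ end divides, that its 3′ end divides or that follows its 3′ end. The first 5 led PANDORA-seq at 15 to 40 nt, the next 3 led PANDORA-seq at 43 to 45 nt, and the last 5 led traditional-seq.
12S 538-559: TAtccatctagaggagcctgttcTA
12S 538-561: TAtccatctagaggagcctgttctaTA
12S 536-561: TAtatccatctagaggagcctgttctaTA
12S 536-559: TAtatccatctagaggagcctgttcTA
12S 536-568: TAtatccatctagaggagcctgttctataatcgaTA
12S 263-306: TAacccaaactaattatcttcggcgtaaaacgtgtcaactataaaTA
12S 538-580: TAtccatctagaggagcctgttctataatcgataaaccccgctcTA
12S 395-437: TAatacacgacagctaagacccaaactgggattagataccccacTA
12S 518-542: aaggacttggcggtactttatatccatc
12S 755-769: atgaaactaaaggacTAa
12S 751-769: ctttatgaaactaaaggacTAa
12S 713-741: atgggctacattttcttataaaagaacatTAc
12S 934-951: ctggaaagtgtgcttggaaTA

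In PANDORA-seq, fragments of 15 to 40 nt were concentrated in the middle of the 12S rRNA. Each base was covered, on average over bases and libraries, by 3.15% of the 12S reads of a library, and a hot spot was defined as a run of bases over 3 times that mean. The 3 hot spots were bases 277 to 296, 517 to 534 and 536 to 568. The last was the highest, and at base 548 it held 33.6% ± 7.11 (SD, n = 16) of the 12S reads, 10.7 times the mean. When the rRNA was divided into 3 equal parts by the middle base of each read, the middle part held 60.5% ± 5.20 of the reads, the first part 23.1% ± 2.97 and the last part 16.4% ± 4.16.

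**Figure D1:**
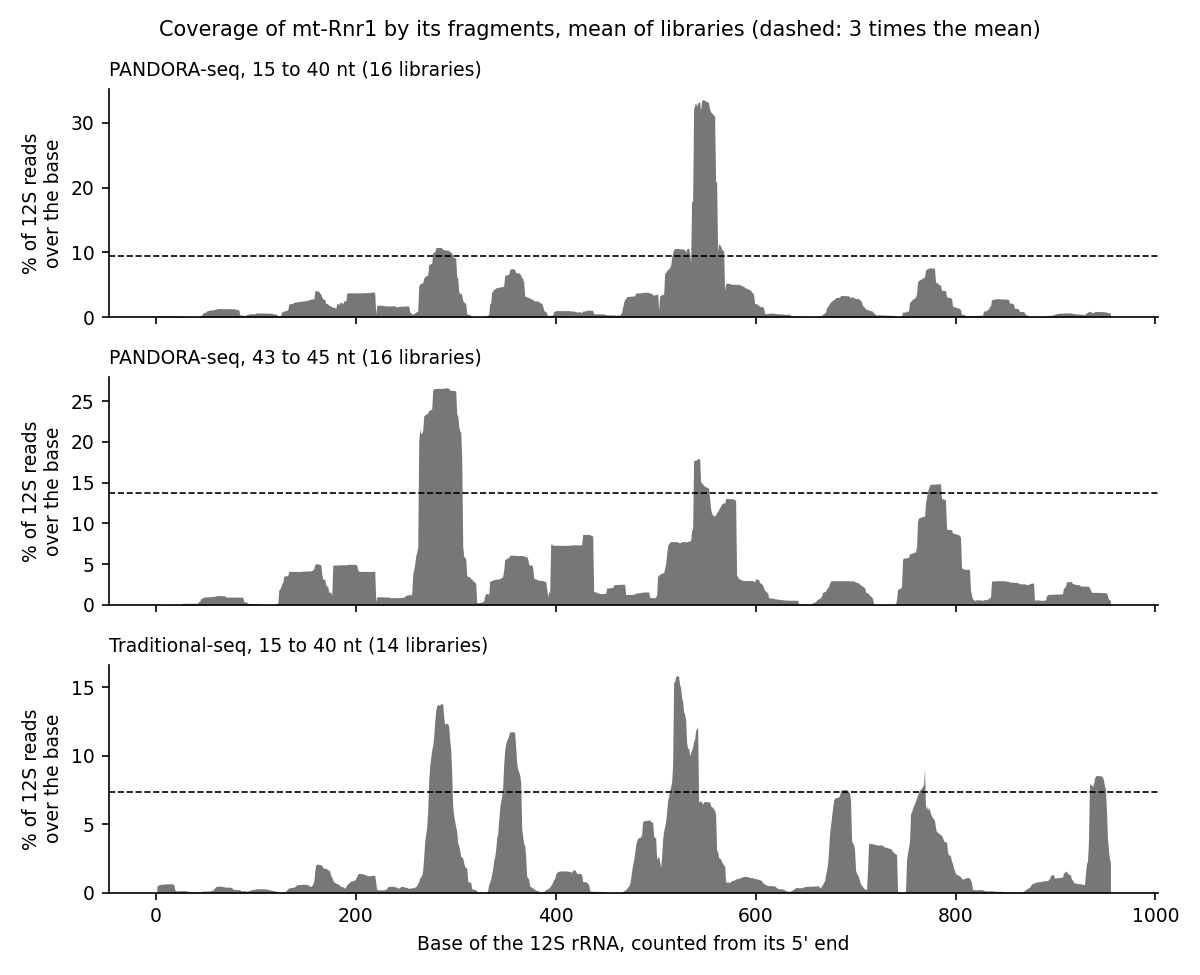
Share of the 12S reads of a library (percent, mean of libraries) that cover each base of the 12S rRNA, counted from its 5′ end, for PANDORA-seq at 15 to 40 nt, PANDORA-seq at 43 to 45 nt and traditional-seq at 15 to 40 nt. The dashed line is 3 times the mean over bases; the highest peak lies at base 548 in the first panel, base 291 in the second and base 522 in the third.

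A few 5′ ends made up much of these reads. The 5′ end at base 538 held 14.5% ± 4.05 (SD, n = 16) of the PANDORA-seq reads of 15 to 40 nt, and it was the most frequent in 15 of 16 libraries. The 5′ end at base 536 followed with 10.1% ± 5.03 and led in the remaining library. The next were at bases 263 (3.82% ± 1.02), 509 (3.34% ± 1.37) and 504 (2.23% ± 0.485). All 5 start with the A of a UA pair. The most frequent 3′ ends, at bases 561 (10.9% ± 4.58), 559 (10.3% ± 3.31) and 568 (6.33% ± 1.84), each stopped just before a UA pair. Of the 10767 distinct sequences of this class, 1672 were read once. Within a library, between 11 and 134 sequences (median 55) accounted for 50% of these reads. Over the pooled reads, of which AD replicate 7 gave 40.3%, it was 21 sequences.

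Fragments of 43 to 45 nt had the same kind of ends and another main hot spot. Bases 263 to 306 stood highest, with 26.7% ± 10.7 (SD, n = 16) of the 12S reads of this length over base 291, and bases 538 to 553 and 772 to 785 were the other hot spots. The leading 5′ end over all libraries was at base 263 (12.9% ± 6.82), followed by bases 538 (8.33% ± 7.84) and 395 (6.16% ± 8.90), but the order differed between the genotypes. Base 263 was the most frequent in 7 of 8 WT and 4 of 8 AD libraries. In WT its median share was 16.4%, beside 2.93% at base 538 and 0.806% at base 395, and in AD the medians were 7.61%, 11.1% and 8.75%. These shares are given without a test. The fragment from base 263 to base 306, which is 44 nt long, made up 72.6% ± 9.13 (SD, n = 16) of the reads of this class that started at base 263. At 15 to 40 nt the same start gave mostly a fragment of 38 nt (47.6% ± 2.96 of its reads). Of the 1488 distinct sequences of 43 to 45 nt, between 2 and 40 (median 16) accounted for 50% of the reads of a library.

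Traditional-seq gave a flatter map with other ends. Its hot spots were bases 273 to 296, 347 to 365, 514 to 542, 685 to 693, 764 to 769 and 934 to 950, and the highest, at base 522, held 15.9% ± 3.08 (SD, n = 14) of the 12S reads. The leading 5′ ends were at base 518 (6.05% ± 2.24) and base 934 (4.26% ± 2.08), the first base of the TGGAAAG loop, and in PANDORA-seq the same positions held 0.558% and 0.114%. The most frequent 3′ ends were at bases 542 (5.80% ± 2.51) and 769 (3.65% ± 2.58). Here, of 4901 distinct sequences, at least 81 (median 167.5) were needed for 50% of the reads of a library, in libraries with fewer 12S reads than those of PANDORA-seq.

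At 15 to 40 nt the maps were more alike within a protocol than between the protocols. The correlation of the 5′-end shares over the positions of the rRNA had a median of 0.940 (range 0.668 to 0.993) over 120 pairs of PANDORA-seq libraries. It was 0.849 (0.628 to 0.976) over 91 pairs of traditional-seq libraries, and 0.134 (0.0423 to 0.280) over the 224 pairs that joined a library of each. Between WT and AD libraries of PANDORA-seq it was 0.940, and of traditional-seq 0.854. These are descriptions over positions of 1 RNA, which are not independent. Among themselves at 43 to 45 nt the PANDORA-seq libraries had a median of 0.758, with a wide range from 0.194 to 0.977.

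Lengths differed in the same way. In PANDORA-seq the most frequent length was 24 nt with 9.05% ± 3.49 (SD, n = 16) of all 12S reads, and 33 nt (6.14% ± 1.27) and 26 nt (6.13% ± 2.52) followed. These are the lengths of the fragments from base 538 to 561, 536 to 568 and 536 to 561. In traditional-seq, 25 nt was the most frequent with 10.2% ± 2.79 (SD, n = 14), which is the length of the fragment from base 518 to 542. Reads of 15 to 40 nt made up between 99.3% and 100% of the 12S reads of a traditional-seq library, and between 68.8% and 93.4% of those in PANDORA-seq.

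**Figure D2:**
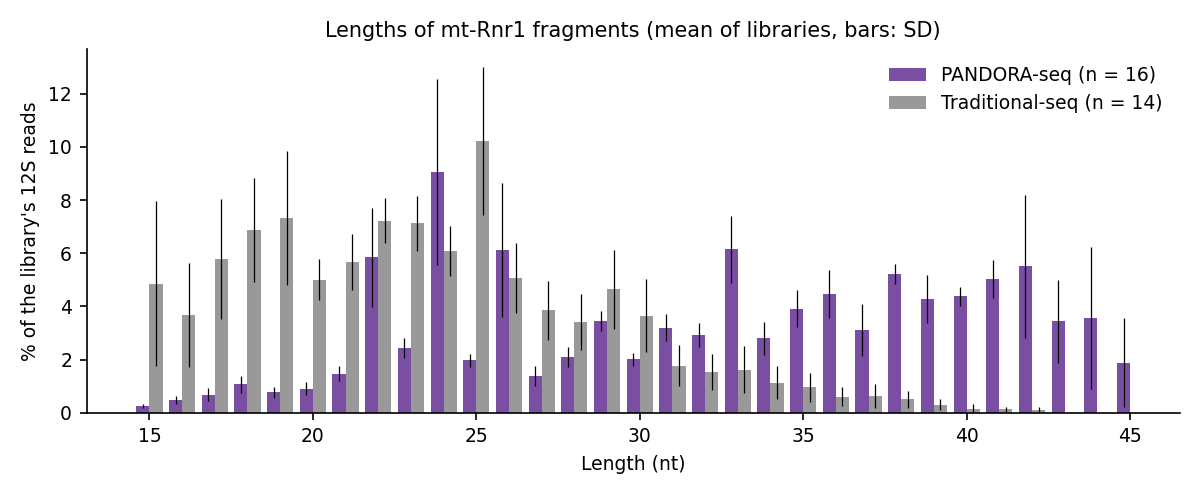
Share of all 12S reads of a library at each length from 15 to 45 nt (percent, mean of 16 PANDORA-seq and 14 traditional-seq libraries, bars ± SD). PANDORA-seq peaks at 24 nt (9.05%) and reaches 45 nt, and traditional-seq peaks at 25 nt (10.2%) and ends at 42 nt.

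The base pairs at the ends separated the protocols. Of the PANDORA-seq reads of 15 to 40 nt, 62.5% ± 15.9 (SD, n = 16, range 41.8% to 91.2%) started between the U and the A of a UA pair. In traditional-seq it was 10.4% ± 1.25 (n = 14, range 8.15% to 12.8%), and UA makes up 109 of the 954 base pairs of the 12S rRNA (11.4%). The groups did not overlap. These end measures were chosen after the values of the leading fragments were seen, and the difference between the protocols in them is given without a test.

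At the 3′ end, 65.6% ± 12.1 (SD, n = 16) of the PANDORA-seq reads stopped just before a UA pair, compared with 9.28% ± 0.837 (n = 14) in traditional-seq. A read that stopped inside the pair, with U as its last base and A as the next, made up 3.08% ± 1.46 in PANDORA-seq and 27.7% ± 3.78 in traditional-seq. Both a start at UA and a stop just before UA were found in 49.3% ± 17.4 of the PANDORA-seq reads and 1.01% ± 0.344 of the traditional-seq reads. Of the longer class, 43 to 45 nt, 60.6% ± 17 of the PANDORA-seq reads started at UA. The 3′ ends of a miRNA also lay further in with PANDORA-seq: 67.9% of the miR-128-3p reads of traditional-seq and 11.9% of those of PANDORA-seq reached 1 base past the RefSeq sequence, and 2.87% and 37.2% stopped 1 base before its end. The part of this shift in the 12S 3′ ends was not tested.

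Few of the UA pairs carried the reads. Of the 109 UA pairs, 17 held at least 1% of the PANDORA-seq 5′ ends each, 44 held under 0.01%, and 3 positions without UA held at least 1%. In traditional-seq, 18 positions held at least 1%, of which 1 was at a UA pair. The 16S rRNA, the large-subunit rRNA of the gene mt-Rnr2, showed the same pairs at lower shares in PANDORA-seq, with 39.8% ± 15.7 of reads of 15 to 40 nt starting at UA and 41% ± 11.8 stopping just before it. In traditional-seq, 55.3% ± 15.7 of the 16S reads stopped inside a UA pair.

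The share of UA starts went with the level of 12S fragments over the PANDORA-seq libraries. Both were counted from the same 12S reads, and the share was chosen after the leading fragments were seen. The relation is therefore a description, given without a test. Pearson's r between the share and log2 RPM at 15 to 40 nt was 0.82 and Spearman's rho 0.76 (n = 16), with 4 such relations computed. Without the 2 libraries farthest from the median level, AD replicate 7 and WT replicate 1, r was 0.73. Within the genotypes r was 0.92 in WT and 0.77 in AD, with rho of 0.64 and 0.69. Without the 2 farthest libraries of each, r fell to 0.27 and 0.50, so that within a genotype the relation rests on WT replicates 1 and 2 and on AD replicates 4 and 7. In traditional-seq r was 0.39 and rho 0.45 (n = 14).

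**Figure D3:**
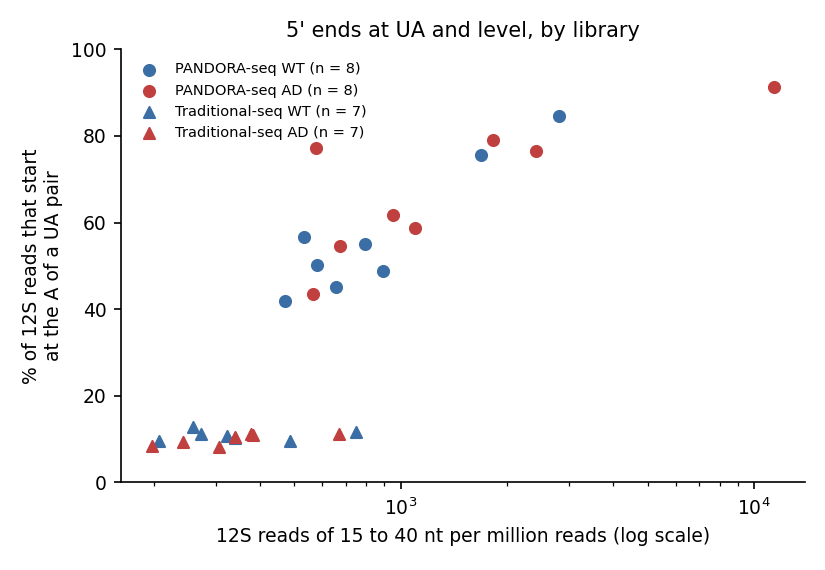
Share of 12S reads of 15 to 40 nt that start at the A of a UA pair (percent) against the level of 12S fragments of 15 to 40 nt (RPM, log scale), 1 point for each of 30 libraries. Circles, PANDORA-seq, lie between 41.8% and 91.2%, and triangles, traditional-seq, between 8.15% and 12.8%.

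Fragments that began or ended at the termini of the mature rRNA were rare, and made up a smaller share of the 12S reads in PANDORA-seq. Reads starting at base 1 made up a median of 0.120% of the 12S reads of 15 to 40 nt in PANDORA-seq (range 0.0420% to 0.266%) and 0.320% in traditional-seq (range 0.101% to 1.58%), computed with 0.5 reads added. The geometric mean was 2.75-fold lower in PANDORA-seq (permutation p = 0.00062, adjusted over 4 measures 0.00062). Reads ending at the last base made up a median of 0.480% (0.0580% to 1.48%) and 1.75% (0.95% to 4.40%). Here the geometric mean was 4.76-fold lower in PANDORA-seq (permutation p = 1e-05, the floor of a test with 100000 shuffles). In RPM the levels were close, with medians of 1.74 and 1.29 RPM for starts at base 1 and 4.95 and 6.69 RPM for ends at the last base. In all libraries together, 23 reads ran from the 12S rRNA into mt-Tv, 20 of them in PANDORA-seq.

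The loop near the 3′ end was a hot spot in traditional-seq and not in PANDORA-seq. Its dimethylated adenines are bases 937 and 938, which are 17 bases or more from the 3′ end. Reads of 15 to 40 nt over both adenines made up 7.76% ± 2.71 (SD, n = 14, range 4.57% to 14.3%) of the 12S reads in traditional-seq and 0.723% ± 0.514 (n = 16, range 0.129% to 1.78%) in PANDORA-seq. The groups did not overlap. In RPM the values were 26.1 ± 7.29 (range 12.4 to 37.2) and 7.30 ± 3.90 (range 0.746 to 15.0), and here the groups overlapped. The mean level over this loop was lower in PANDORA-seq although the level of all 12S fragments was higher. This difference in RPM is given without a test. In traditional-seq 4.26% of the reads started at the first base of the motif and 0.669% ± 0.331 started past both adenines.

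PANDORA-seq read more 12S fragments than traditional-seq. At 15 to 40 nt traditional-seq libraries had between 198 and 748 RPM with a median of 331 RPM, and PANDORA-seq libraries between 471 and 11355 RPM with a median of 841 RPM. The lowest PANDORA-seq libraries overlapped the highest of traditional-seq. The ratio of geometric means was 3.19-fold (permutation p = 1e-05, the floor of this test, adjusted 1.33e-05). It was 1.33 on the log2 scale with WT libraries alone (exact permutation, adjusted p = 0.00580, n = 8 and 7) and 2.02 with AD libraries alone (exact permutation, adjusted p = 0.00186). With libraries paired by the shared code it was 1.76 (exact permutation within pairs, adjusted p = 0.000488, n = 14 pairs).

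The 16S rRNA was read at overlapping levels in the protocols, so that the ratio of both rRNAs differed. At 15 to 40 nt 16S fragments had between 1439 and 3460 RPM in traditional-seq (median 2247) and between 1151 and 12421 RPM in PANDORA-seq (median 2000.4), a difference that was not tested by itself. The ratio of 12S to 16S reads of 15 to 40 nt was between 0.106 and 0.224 in traditional-seq (median 0.148) and between 0.261 and 0.914 in PANDORA-seq (median 0.463). The ranges did not overlap, and the geometric mean was 3.13-fold higher in PANDORA-seq (permutation p = 1e-05, again the floor).

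Between the protocols, 12S sequences of 15 to 40 nt were called in both directions. By edgeR's quasi-likelihood test with an adjusted p under 0.05 and a change over 2-fold, 335 of 436 tested 12S sequences (76.8%) were higher in PANDORA-seq, beside 66.6% of all 95897 sequences tested, and 66 (15.1%) were lower, beside 25.7%. Of the 335 sequences, 160 (47.8%) started at UA and 181 (54.0%) stopped just before UA. Of the 66 sequences, 7 (10.6%) started at UA, 4 (6.06%) stopped just before it and 20 (30.3%) stopped inside a UA pair. Of the 35 tested sequences that were not called, 8 (22.9%) started at UA, 6 (17.1%) stopped just before it and 8 (22.9%) stopped inside one. A sequence could pass the filter through the protocol in which it was frequent. These shares therefore repeat the ends of the frequent reads and are a description. The median length was 31 nt for those higher in PANDORA-seq and 22 nt for those lower, and these sequences overlap one another along the rRNA, so they are not independent.

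Single sequences were close to absent from one of the protocols. They entered the test through the protocol in which they were frequent and were picked for their abundance or their rank, so that their values are given as a description, without a test. That from base 536 to 568 had between 4.16 and 563 RPM in PANDORA-seq (median 19.4) and 0 reads in all 14 traditional-seq libraries. Bases 467 to 502, first by adjusted p among those higher in PANDORA-seq, had between 1.24 and 9.73 RPM there and 1 read in 1 traditional-seq library. All 16 PANDORA-seq libraries lay above all 14 traditional-seq libraries for both fragments.

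The traditional-seq leaders showed the reverse. Bases 755 to 769 had between 0.894 and 10.4 RPM in traditional-seq (median 3.37) and 1 read in 1 of 16 PANDORA-seq libraries. The fragment from base 518 to 542 had between 3.97 and 35.5 RPM in traditional-seq (median 16.6) and at most 0.0653 RPM in PANDORA-seq, where 5 libraries had no read of it. One more, from base 934 to 951, which starts at the TGGAAAG loop, had between 1.57 and 8.63 RPM in traditional-seq (median 4.29) and was read in 15 of 16 PANDORA-seq libraries, at no more than 0.272 RPM.

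At 15 to 40 nt the level of 12S fragments did not pass the test between AD and WT in either protocol. In PANDORA-seq, WT libraries had between 471 and 2801 RPM with a median of 724 RPM, and AD libraries between 566 and 11355 RPM with a median of 1026 RPM. The groups overlapped over most of their range, and AD replicate 7 alone lay far above the next AD library at 2419 RPM. The log2 difference, AD minus WT, was 0.65 (exact permutation p = 0.317, adjusted over 10 measures 0.636), and 0.21 without AD replicate 7. In traditional-seq WT libraries had between 207 and 748 RPM (median 323) and AD libraries between 198 and 668 RPM (median 339), with a log2 difference of -0.04 (exact permutation p = 0.902). In bulk tissue such as this, fewer cells of a type and less RNA per cell cannot be told apart.

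For fragments of 43 to 45 nt the level was lower in AD without passing the test after adjustment. WT libraries had between 83.0 and 473 RPM with a median of 137 RPM, and AD libraries between 8.94 and 165 RPM with a median of 40.4 RPM. Most WT libraries lay above most AD libraries, with an overlap at AD replicates 6 and 7. The geometric mean was 3.41-fold lower in AD (log2 difference -1.77, exact permutation p = 0.00544, adjusted over 10 measures 0.0544). With 1 library left out at a time, the adjusted p (exact permutation) lay between 0.0109 and 0.109, and 14 of 16 values did not pass. It was 0.0357 without AD replicate 6 and 0.0109 without AD replicate 7, the AD libraries with the highest levels. All reads of 43 to 45 nt made up between 11.2% and 21.5% of a WT library and between 2.13% and 10.7% of an AD library. This difference was known when the class was set apart. Tests of the 12S level between AD and WT at these lengths are therefore not independent of that choice. Relative to all reads of the same lengths the 12S difference was 0.055 (exact permutation p = 0.918), and relative to mitochondrial reads of the same lengths it was 1.01, higher in AD (exact permutation p = 0.00559, adjusted 0.0559).

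**Figure D4:**
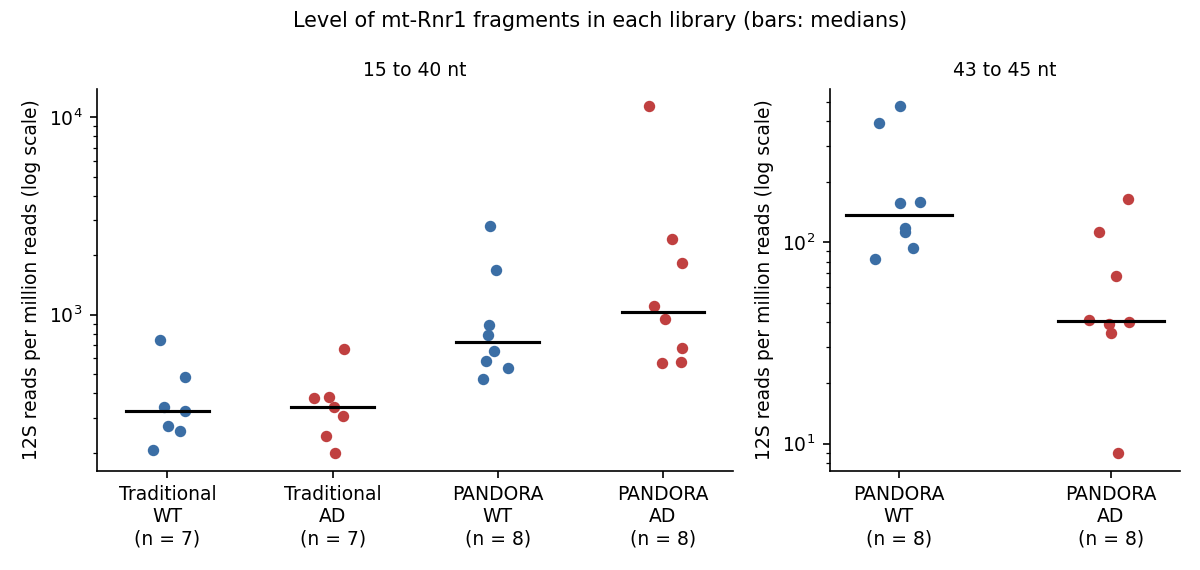
Level of 12S fragments in each library (RPM, log scale), at 15 to 40 nt for both protocols and at 43 to 45 nt for PANDORA-seq, with bars at the medians of 7 or 8 libraries. The groups overlap at 15 to 40 nt, where AD replicate 7 stands at 11355 RPM, and at 43 to 45 nt the medians are 137 RPM in WT and 40.4 RPM in AD.

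The difference grew base by base towards the longest reads. At 43 nt the median level of 12S fragments was 46.5 RPM in WT and 29.8 RPM in AD, and at 44 nt it was 54.8 and 11.7 RPM. At 45 nt WT libraries had between 19.8 and 98.0 RPM (median 34.8) and AD libraries between 0.765 and 16.8 RPM (median 3.17), and these groups did not overlap. The share of all reads at 45 nt did not overlap either. It was 3.70% to 5.35% of a WT library and 0.697% to 2.64% of an AD library. For 12S fragments the ratio of the WT to the AD median was 1.56, 4.69 and 11 at these lengths, beside ratios of 2.17, 4.76 and 4.70 for the share of all reads of the library at the same length. At 44 nt alone the log2 difference of the 12S level was -2.53 (exact permutation p = 0.000622, adjusted 0.00622).

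By sequence, the calls between AD and WT in PANDORA-seq fell almost wholly on the longest fragments. Of 960 12S sequences that passed the filter on low counts, 38 were lower in AD by edgeR's quasi-likelihood test (adjusted p under 0.05 and over 2-fold) and 0 were higher, beside 1.88% lower and 0.0403% higher of all 188718 sequences tested. In the class of 43 to 45 nt 37 of 107 12S sequences were lower, beside 19.7% of all sequences of this length. At 41 to 42 nt 1 of 95 was lower (0.359% of all) and at 15 to 40 nt 0 of 758 were lower (0.0271% of all). A sequence could pass the filter through the genotype in which it was frequent, so the counts are to be read only against those of all sequences. DESeq2 called 64 lower and 3 higher, beside 3.55% and 0.39% of all. Leaving out AD replicate 5 or 6 gave 59 and 61 lower. The share over all sequences is not given beside these, so they show only that the number of calls depends on single libraries.

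The called sequences were 23 of 29 at 45 nt (37.4% of all sequences of this length), 12 of 32 at 44 nt (21.3%) and 2 of 46 at 43 nt (3.84%). Their log2 differences lay between -2.11 and -5.44, at 31 distinct 5′ ends from base 128 to base 911, so that they spanned most of the rRNA. The median log2 difference of the 12S sequences was -3.63 at 45 nt, -2.41 at 44 nt and -1.24 at 43 nt, beside -2.02, -1.67 and -0.95 for all sequences tested. Of the 107 tested 12S sequences 98 had a difference under 0, and they overlap one another along the rRNA, so they are not independent. With libraries scaled at each length by themselves, 12 of the 960 12S sequences were lower (0.556% of all) and 0 higher (0.867% of all). Of the 29 of 45 nt, 10 were lower (13.8% of all at that length) and 0 higher (14.5% of all).

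**Figure D5:**
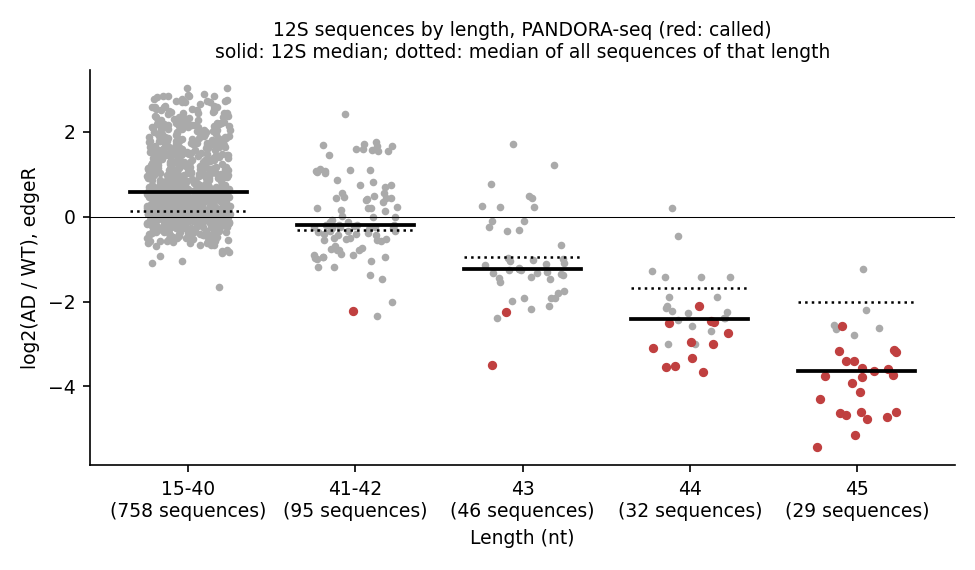
Log2 difference, AD minus WT, of each of the 960 tested 12S sequences of PANDORA-seq by length class, with called sequences in red, the 12S median as a solid bar and the median of all sequences of that class as a dotted bar. The 12S median falls from 0.58 at 15 to 40 nt to -3.63 at 45 nt.

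First by adjusted p was the fragment from base 908 to 952, which is 45 nt long and runs over the dimethylated adenines. It had between 0.480 and 2.0 RPM in WT libraries (median 1.24, at least 39 reads) and between 0 and 0.0784 RPM in AD libraries (at most 6 reads). Every WT library lay above every AD library, 2 of which had no read of it. It passed the filter on low counts through the WT libraries and was picked for its rank, so that these values are a description, without a test.

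The leading fragments of 43 to 45 nt were split. The fragment from base 263 to 306 (44 nt) had between 9.32 and 70.4 RPM in WT (median 13.9) and between 0.237 and 14 RPM in AD (median 2.70), with an overlap at the top of AD and a log2 difference of -2.43 ± 0.65 (SE, edgeR, adjusted p = 0.0585). The fragment from base 747 to 790 (44 nt) was at -3.0 ± 0.78 (adjusted p = 0.0514, edgeR). Neither passed the threshold. The leading fragments of 43 nt had no such difference: those from base 538 to 580 and 395 to 437 were at 0.48 ± 0.76 and 1.72 ± 0.97 (edgeR, adjusted p = 0.890 and 0.586), and that from base 177 to 219 at -0.35 ± 0.69 (edgeR, adjusted p = 0.916).

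Some shares within the fragments of 43 to 45 nt also differed between the genotypes. Reads over the dimethylated adenines made up between 1.36% and 4.12% of this class in WT and between 0% and 0.782% in AD. The last of the 3 equal parts of the rRNA held between 24.8% and 41.1% in WT and between 4.78% and 23.3% in AD, and base 784, the peak of the hot spot from base 772 to 785, between 15.3% and 35% in WT and between 3.02% and 12.6% in AD. None of these ranges overlapped, but other shares of the class did overlap between the genotypes. The first part of the rRNA held between 30.3% and 47.7% in WT and between 19.1% and 51.1% in AD, and the middle part overlapped too. The peak at base 542 held between 12.1% and 17.7% in WT and between 13.1% and 30.1% in AD, and the peak at base 291 also overlapped. All are shares of a class whose split over 43, 44 and 45 nt itself differed between the genotypes, and all are given without a test.

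At 15 to 40 nt most 12S sequences had a log2 difference above 0 in AD, and none was called by edgeR's quasi-likelihood test. Of 758 sequences tested, 600 were above 0, with a median of 0.58 beside 0.14 for all sequences of this class. The median was 0.27 by DESeq2 (0.11 for all) and 0.33 with each length scaled by itself (-0.06 for all). AD replicate 7, at 11355 RPM, stood far above the other libraries in this class, and without it the log2 difference of the summed level was 0.21 instead of 0.65. By that test 0 were called higher, beside 0.0464% of all sequences of this class, while DESeq2 and edgeR's likelihood ratio test called 3 each, beside 0.460% and 0.386%. At an unadjusted p under 0.05 there were 159 (21%), of which 155 were higher in AD, beside 5.81% of all sequences of this class in either direction. The 12S sequences overlap one another along the rRNA, so they are not independent, and these counts are a description. The likelihood ratio test gave 199 (26.3%, beside 7.20%), DESeq2 73 (9.63%, beside 7.75%) and scaling at each length 71 (9.37%, beside 3.71%). In the quasi-likelihood fit the smallest adjusted p (edgeR) was 0.147. The leading fragment, from base 538 to 559, had between 9.99 and 256 RPM in WT (median 36.5) and between 17.3 and 1093 RPM in AD (median 62.6). The groups overlapped, and its log2 difference was 1.90 ± 0.85 (SE, edgeR, adjusted p = 0.424). The other 4 leading fragments had differences between 1.74 and 2.06. In traditional-seq 0 of 39 tested 12S sequences were called by edgeR or DESeq2, beside 0% of 24841, and 1 had an unadjusted p under 0.05.

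Among the mitochondrial genes, the 12S rRNA stood with the genes that did not pass the test. A table of reads summed by gene held genes of small non-coding, ribosomal and mitochondrial RNAs alone. In it, at 15 to 40 nt, mt-Rnr1 had a log2 difference of 1.01 ± 0.55 (SE, edgeR, adjusted p = 0.741) in PANDORA-seq. This was 0.03 without AD replicate 7 and 0.02 by DESeq2. None of the 37 mitochondrial genes was called by edgeR, beside 0% of 835 genes, and 1 of the 37 had an unadjusted p under 0.05, beside 60 of the 835. At 43 to 45 nt, where the table was scaled over genes of that length alone, mt-Rnr1 was at 0.77 ± 0.43 (SE, edgeR, adjusted p = 0.163) and at 0.17 without AD replicate 7. Of 35 mitochondrial genes tested at this length 7 were lower in AD and 2 higher, beside 22.7% and 17% of 282 genes. The 7 were tRNA genes, with mt-Th (tRNA-His) the most changed at -2.49 ± 0.29 (SE, edgeR, adjusted p = 5.62e-06), and the 2 higher were mt-Nd4, which encodes a subunit of complex I, and mt-Tp (tRNA-Pro).

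The 12S and 16S rRNA fragments moved together over the PANDORA-seq libraries. By Spearman's rho over 16 libraries, mt-Rnr2 was the most like mt-Rnr1 of 460 genes of that table compared, with rho of 0.918. The snoRNA genes Gm22879 (0.903) and Snord70 (0.891) followed, beside a median of 0.482 over the other mitochondrial genes and 0.351 over all genes compared. These libraries share the steps that set depth and composition, and the values are a description. The ratio of 12S to 16S reads at 15 to 40 nt had a median of 0.427 in WT and 0.514 in AD (log2 difference 0.24, exact permutation p = 0.318). For 43 to 45 nt it was between 0.0806 and 0.170 in WT and between 0.109 and 0.221 in AD, with an overlap of the groups and a log2 difference of 0.44 (exact permutation p = 0.0312, adjusted over 10 measures 0.156).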

How the data were processed

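Small RNA of mouse prefrontal cortex was sequenced in 30 libraries, and the authors deposited for each library the raw read counts of every distinct sequence with its length, without normalization or coordinates. Adapters had been removed. The genome build named in the submitters' processing notes is mm39. No genome was needed here, and coordinates are those of GENCODE M21 on GRCm38. The published workflow used SPORTS1.1, which was not used here. The mt-Rnr1 fragments, the length classes and the gene lists were chosen with earlier results of these data known.

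Each whole sequence was matched to mt-Rnr1 without a mismatch. No 12S sequence had more than 1 position, and 69 sequences with 1793 reads (0.0643% of 12S reads) also occurred in another GENCODE gene. Reads carry no molecular identifiers, so counting limits are lower limits of the error. Single measures were compared on the log2 scale by two-sided exact permutation over 12870 (8 against 8) or 3432 (7 against 7) arrangements, with smallest p of 0.000155 and 0.000583, or between protocols by 100000 shuffles, with Benjamini-Hochberg adjustment over 10 and 4 measures. Sequences and genes were tested with edgeR 4.0.16 (quasi-likelihood, TMM, filterByExpr with a smallest count of 10) in R 4.3.3. The fits and the adjustment ran over all sequences, or over all genes of the gene table. That table held reads that matched only 1 of 6125 genes of small non-coding, ribosomal and mitochondrial RNAs, of 55450 genes in GENCODE M21. To limit memory, a sequence entered when 6 libraries had at least 2 reads of it. DESeq2 1.42.0, edgeR's likelihood ratio test, other denominators, filters, length limits and matches with at most 1 mismatch were alternatives. Other steps used Python 3.11.15, NumPy 2.4.6, pandas 2.3.3 and SciPy 1.17.1. On simulated counts for the PANDORA-seq AD against WT comparison, 152 of 200 changed sequences passed the filter. All 152 were called, and 7 unchanged ones of 180716 tested. How often small changes are missed at the spread of these libraries was not tested.

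Sequences named in the text were the 5 most abundant of each protocol and length class, and those with the smallest adjusted p in each direction. Since miR-124-3p, miR-122-5p and miR-1a-3p had no entry in the RefSeq table, 4 of 7 marker miRNAs were matched. Sex was not analysed here.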

Additional observations from a re-analysis of the deposited data

Results flagged for a closer look

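Of the 18 groups of libraries examined for a library far from its group by Dixon's test, 6 held one, and chance gives about 1 in 20. For the level at 15 to 40 nt, PANDORA-seq AD replicate 7 had 11355 RPM, with the next AD library at 2419 RPM, and traditional-seq AD replicate 7 had 668 RPM, with the next at 383 RPM. For the ratio of 12S to 16S reads, PANDORA-seq WT replicate 1 stood at 0.833 (next 0.517) and traditional-seq AD replicate 7 at 0.224 (next 0.154). For the share of reads that start at base 1, traditional-seq AD replicate 2 stood at 1.58% with 0.5 reads added (next 0.594%), from 32 of 2052 reads, with a 95% Wilson interval from 1.11% to 2.19%. For the share of reads that end at the last base, PANDORA-seq AD replicate 1 stood at 1.48% (next 0.566%), from 508 of 34306 reads, with a 95% Wilson interval from 1.36% to 1.61%. A test of whether the difference between AD and WT differs between the protocols, by permuting genotype within protocol, passed for none of 4 measures (adjusted p between 0.445 and 0.948).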

How the results depend on the processing

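Of 23 results, 16 were unchanged under all settings other than leaving out a library. For levels, ratios, shares and genes, unchanged means the same direction and the same side of the threshold, also where that side was not passing. A number of called sequences counted as unchanged within a set ratio of the main number, or when both were 0. With all settings, 542 alternative values were computed, of which 506 were unchanged. At 43 to 45 nt the log2 difference between AD and WT of -1.77 became 0.055 relative to all reads of the same lengths, 1.01 relative to mitochondrial reads of those lengths and -2.53 at 44 nt alone, which passed the test. By its construction the first takes out the loss of all reads of 43 to 45 nt in AD. In traditional-seq the difference at 15 to 40 nt of -0.04 became 0.13 relative to mitochondrial reads, and that of the 3′ terminus share of 0.03 became -0.089 with 1 mismatch allowed. The 38 12S sequences lower in AD (3.96%, beside 1.88% of all sequences) became 59 by the likelihood ratio test (6.15%, beside 3.22%), 64 by DESeq2 (6.67%, beside 3.55%), 12 with each length scaled by itself (1.25%, beside 0.556%), 8 with a smallest count of 50 (3.43%, beside 2.42%) and 176 with matched sequences alone and a loose filter (2.77%, beside 2.75%). Those higher in AD, 0, became 3 by each of the first 2 (0.312%, beside 0.331% and 0.39%) and 43 by the last (0.677%, beside 0.319%). Between the protocols, a smallest count of 50 left 80 higher (87.0%, beside 62.7%) and 9 lower (9.78%, beside 30.8%) in PANDORA-seq, since fewer sequences were tested. For the others the cause was not tested.

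Leaving out 1 library at a time gave log2 differences between -2.03 and -1.42 at 43 to 45 nt, between 28 and 61 sequences lower in AD and 0 or 1 higher. These counts are given without the share over all sequences and show only how far the number of calls depends on single libraries. In traditional-seq, leaving out 1 library gave between -0.20 and 0.15 for the level, between -0.17 and 0.0076 for the 12S to 16S ratio, between -0.16 and 0.21 for the 3′ terminus share and between -0.22 and 0.19 for mt-Rnr1 in the gene table, all of which changed sign without passing the test.

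The labels do not say whether the replicate numbers shared by WT and AD mark a litter or batch, and the libraries were treated as unpaired. Deviations of same-numbered libraries correlated between -0.41 and 0.43 in PANDORA-seq (over 0.1 in 3 of 8 pairs, with 0 of 8 libraries closest to its own number). In traditional-seq they correlated between -0.42 and 0.53 (3 of 7, with 1 of 7). So few pairs cannot exclude a shared litter or batch. With the replicate number as a block, 46 sequences were lower in AD (4.79%, beside 2.64%) and the log2 difference at 43 to 45 nt stayed -1.77 (exact permutation, adjusted p = 0.312), and it changed no other call. The 12S difference at 15 to 40 nt in PANDORA-seq ranged from 0.21 to 1.21 over all settings. Depth limited traditional-seq, where between 2052 and 8868 12S reads of 15 to 40 nt a library left 39 sequences to test.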

Other observations

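Sequences that matched mt-Rnr1 with exactly 1 mismatch placed a few changes above the rest. The reference base is given first, then the base position counted from 1 at the 5′ end of the 12S rRNA, then the base read. In traditional-seq A561G made up 13.7% of the reads over that base (281 of 2054 reads, in 9 of 14 libraries), and the next was A674G with 1.42%. In PANDORA-seq the highest were G4T with 4.96% and G4C with 4.16% of 3488 reads, near the 5′ terminus, and A246C had 0.790% of 55599 reads in 15 of 16 libraries. These are pooled reads over the libraries of a protocol, and no comparison was made with them.

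Reads of 15 to 40 nt that started past both adenines made up 0.133% of the 12S reads in PANDORA-seq on average and 0.669% of those in traditional-seq, beside means of 0.723% and 7.76% that covered both. Reads that stopped 1 to 4 bases before the last base of the rRNA made up 0.20% ± 0.119 (SD, n = 16) in PANDORA-seq and 3.84% ± 1.14 (SD, n = 14) in traditional-seq, where they outnumbered reads that reached the last base (2.18%).

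Between the genotypes the share of 12S reads of 15 to 40 nt that start at UA was 57.2% in WT and 67.8% in AD in PANDORA-seq (exact permutation p = 0.184, n = 8 and 8), and 10.8% and 9.99% in traditional-seq (exact permutation p = 0.243, n = 7 and 7). This measure was chosen after the leading fragments were seen.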
